A study of Mus musculus with 18 samples.

Results

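The 39 mitosis and spindle genes described here were chosen by name from the genes that act in G2 and in mitosis, and each had to have a probe set that carries a single gene symbol. All 39 listed genes were measured, out of 22180 genes with such a probe set, and each of the 39 had exactly 1 of them. RNA was measured on 18 Affymetrix arrays, 3 in each of 6 groups of sorted mouse cells. Per the labels, 5 groups are fractions of thymic lymphomas taken from moribund mice with the genotype Lck-Cre transgene. These mice were sublethally irradiated and then given bone marrow infected with a retrovirus, so that early T cells express NPM-ALK, a fusion kinase found in anaplastic large cell lymphomas. The promoter of Lck, which drives Cre, is active in the T lineage. The fractions are named CLP (common lymphoid progenitor), DN1, DN2, DN3 and DN4 (double negative for CD4 and CD8), and the series design speaks of 3 lymphomas. The sixth group, LSK (lineage-negative, SCA1-positive, KIT-positive), came from bone marrow of healthy wildtype mice aged 18 months. LSK and lymphoma cells therefore differ in tissue, genotype and transplantation as well as in disease, and these cannot be told apart. Strain and sex of the mice are not given in the sources used here.

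A cell enters mitosis when CDK1 with its cyclins is activated by CDC25 phosphatases. Polo, Aurora and related kinases then build the spindle, kinetochores attach chromosomes to it, a checkpoint delays their separation until all are attached, and cytokinesis parts the daughter cells. Most genes of this program are repressed in resting cells and transcribed late in the cycle, so their RNA is often read as a sign of dividing cells. In the normal thymus, double-negative cells divide at several stages, while LSK is a mixed bone marrow population of quiescent stem cells and cycling multipotent progenitors. In sorted cells measured in bulk, fewer cells in mitosis and less RNA per cell cannot be told apart.

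Late cell cycle genes share 2 promoter elements, shown here because the results below concern whether the genes move together. These are the cell cycle genes homology region (CHR), which the DREAM and MMB complexes bind, and the CCAAT box, which NF-Y binds. Promoters of RefSeq (GRCm38.p6), each reaching from 250 bases before to 50 bases after a transcription start, were matched for 32 of the 39 genes, with 34 windows in all. CHR was searched as TTTGAA or TTCGAA and CCAAT as CCAAT, each on both strands, and matches of the pair may share bases. CHR letters were in 26 of 34 windows (76.5%), against 19.2% of all 32851 promoter windows of this length. CCAAT letters were in 70.6% of the windows, against 37.4%, and both were in 64.7%, against 7.52%. Of the 37 CHR matches, 25 began within 50 bases of the start. Matches are counted per window, so the sites that the overlapping windows of Ect2 and of Prc1 share count in each. Stretches were shown only if they hold a CHR, so its presence in them is no result. The last 100 bases before the start of 6 of the genes follow in the direction of transcription, with CHR and CCAAT matches of either strand in capitals. They are Cdc20 (chr4:118437344-118437443, minus strand), Cdk1 (chr10:69352913-69353012, minus), Kif11 (chr19:37376282-37376381, plus), Kif15 (chr9:122950981-122951080, plus), Prc1 (chr7:80294376-80294475, plus) and Top2a (chr11:99024190-99024289, minus).
Cdc20: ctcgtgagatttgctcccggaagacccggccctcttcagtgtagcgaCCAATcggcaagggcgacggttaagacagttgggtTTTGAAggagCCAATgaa
Cdk1: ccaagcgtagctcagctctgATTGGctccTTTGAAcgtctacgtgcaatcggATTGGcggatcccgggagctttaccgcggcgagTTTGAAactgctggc
Kif11: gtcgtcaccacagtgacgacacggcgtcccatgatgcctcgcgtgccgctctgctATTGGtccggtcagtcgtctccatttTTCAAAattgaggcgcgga
Kif15: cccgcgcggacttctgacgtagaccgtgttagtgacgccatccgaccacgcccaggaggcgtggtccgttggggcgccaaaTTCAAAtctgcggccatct
Prc1: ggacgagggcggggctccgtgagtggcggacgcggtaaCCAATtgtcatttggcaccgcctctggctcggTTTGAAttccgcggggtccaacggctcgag
Top2a: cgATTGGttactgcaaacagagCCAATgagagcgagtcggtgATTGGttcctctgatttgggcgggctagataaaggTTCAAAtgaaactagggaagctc

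The Kif15 stretch holds a CHR and no CCAAT, and the Top2a stretch holds 3 CCAAT matches upstream of its CHR. For Prc1 the other window, whose CHR spans the start, is not shown. In other genes, such as Aurka and Plk1, the CHR letters lie only after the start. Prc1, whose levels across the fractions differed from those of most of the other genes, carries both elements. No CHR letters were found in the windows of Birc5, Cenpe, Mad2l1, Melk, Nek2, Nuf2, Nusap1 and Plk4. A letter match is a description of the sequence and not a measured binding site.

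**Figure D1:**
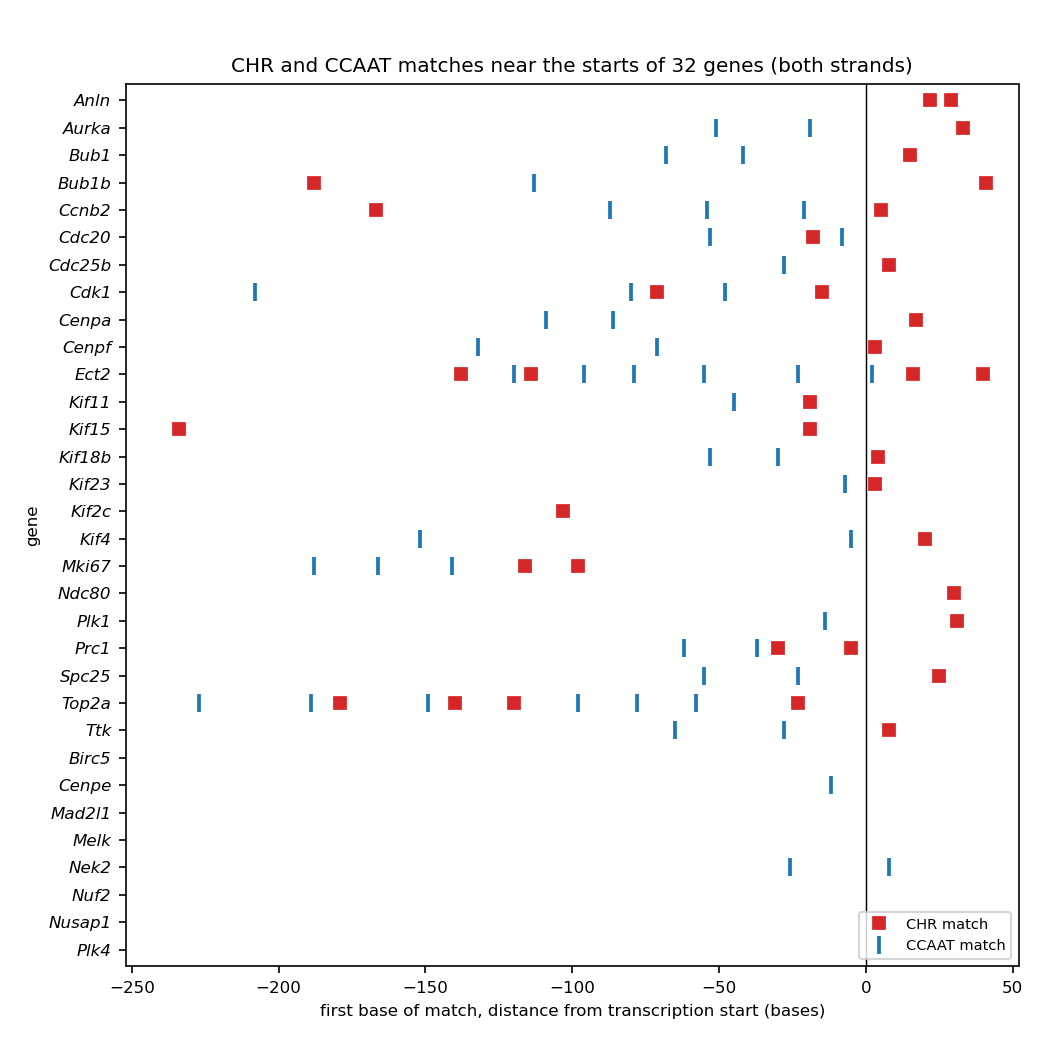
Position of each CHR match (red squares) and CCAAT match (blue ticks) in the promoter windows of 32 mitosis genes; the x axis gives the distance in bases of its first base from the transcription start, and both windows of Ect2 and of Prc1 are drawn in 1 row. CHR matches crowd around the start, with a median position of -5, and CCAAT matches lie mostly upstream of it, with a median of -55. A site held by both windows of a gene counts in each.

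Values are log2 signals made by the authors with RMA, and a gene is called here when its limma adjusted p (Benjamini-Hochberg over all 22180 genes) was under 0.05. All 39 genes read above the background of the arrays, gauged by the 95th percentile of olfactory receptor genes at 5.36 to 5.71, on all 18 arrays. Their mean signal over the arrays ran from 6.44 for Cdc25c to 10.22 for Mki67. As a check of the groups, all 9 T lineage markers were higher in the lymphoma, with array means of 9.96 to 10.85 against 5.69 to 5.79 in LSK, and all 11 stem and progenitor markers were lower. Il2ra, which encodes CD25, averaged 11.81 in DN2 and 12.02 in DN3 and 8.31 to 9.04 in the other fractions. Il7r, which encodes the IL7Rα used in the sort, was lowest in CLP among the fractions at 7.99 (SD 0.90, n = 3). Free-text descriptions of the samples instead speak of aged mice, NIPA knockout or wild-type, and of 4 Gy on 12 arrays, against the titles, which were followed. Xist and the Y-linked Eif2s3y read 3.55 and 8.42 on LSK array 1, 10.74 and 7.43 on array 2, and 10.00 and 4.69 on array 3. The LSK arrays thus carry different sex-linked RNA, with both kinds on array 2, while every lymphoma array reads high for Eif2s3y and low for Xist. Nothing in the labels says whether arrays of the same number come from 1 lymphoma, so p-values measure the spread between these samples.

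Mitosis genes were highest in DN2 and lowest in DN1 or DN4, with LSK, CLP and DN3 in between. The mean signal over the 39 genes was 8.49, 8.79 and 8.77 on the DN2 arrays. It was 8.0, 8.02 and 7.97 in DN1 and 7.92, 8.16 and 8.20 in DN4, so neither fraction reached the lowest DN2 array. DN3 arrays read 8.30, 8.76 and 8.35, CLP arrays 7.98, 8.65 and 8.53, and LSK arrays 8.41, 8.20 and 7.90. Single arrays stood apart for nearly the whole list: LSK array 3 was the lowest of its group for 36 of the 39 genes, DN2 array 1 for 36, CLP array 1 for 32 and DN4 array 1 for 32, while DN3 array 2 was the highest of its group for 36. Their median SD was 0.40 in CLP and 0.27 in LSK, against 0.24 and 0.15 over all genes, while in DN1 it was 0.17 against 0.18.

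**Figure D2:**
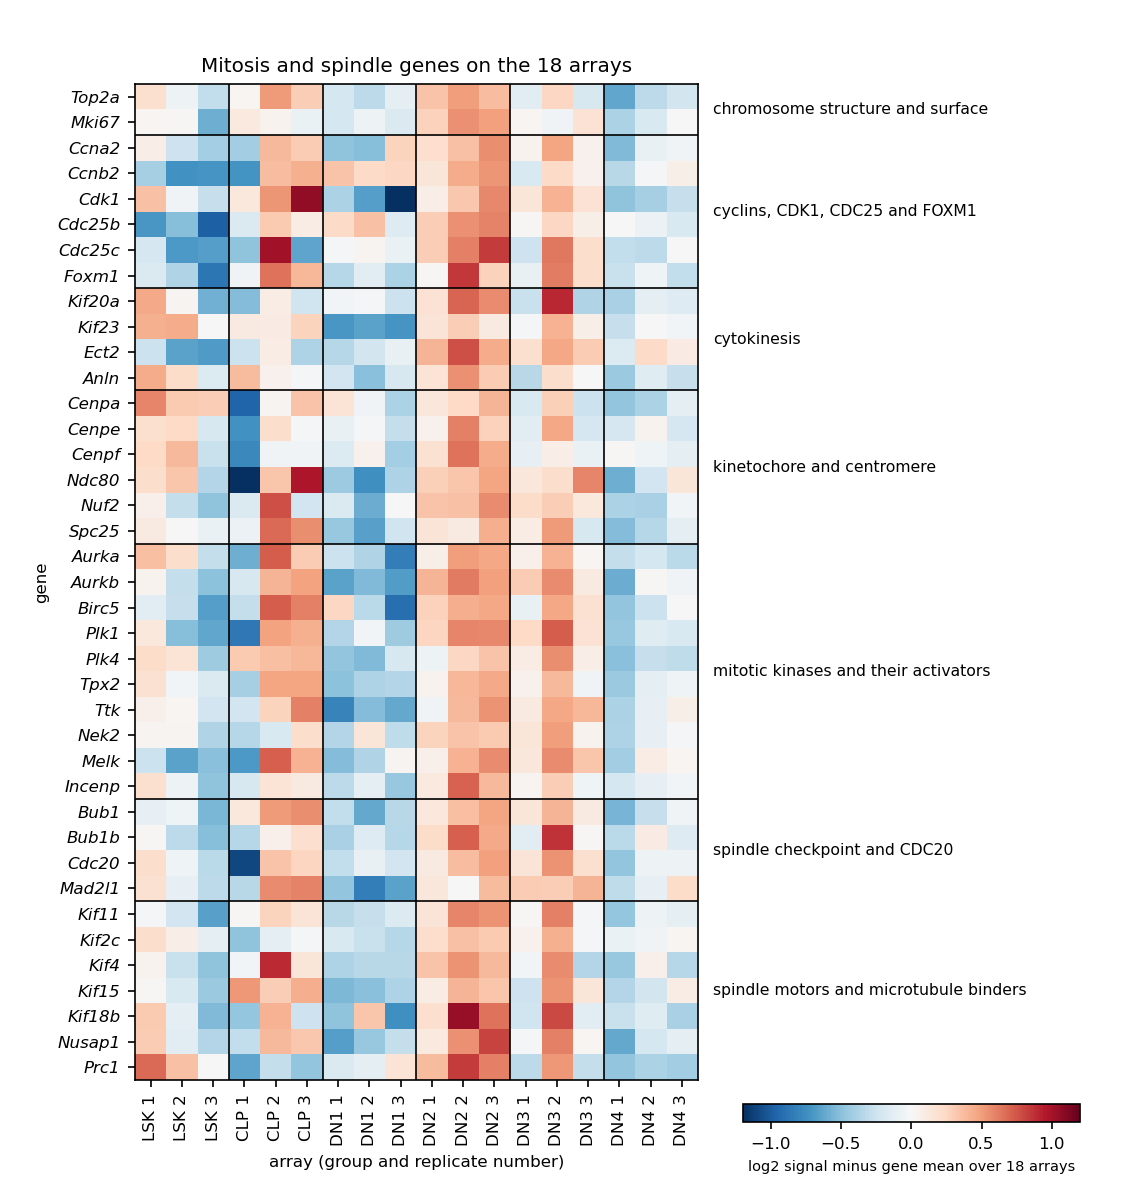
Signal of each of the 39 mitosis genes (rows, grouped by role) on each of the 18 arrays (columns, by group and replicate number), as log2 signal minus the mean of the gene over all 18 arrays; red is above that mean and blue below. The DN2 columns are red for nearly every gene, the DN1 and DN4 columns are mostly blue, and CLP array 1 and LSK array 3 are bluer than the other arrays of their groups.

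Averaged over the 5 fractions, mitosis genes as a whole lay close to LSK. With the fraction arrays of each replicate number averaged, 5 genes rose and 1 fell, which is 15.4% of the 39 where 29% of all genes were called, 13.1% higher and 15.8% lower. The median difference was 0.12, against 0.05 over all genes. It was 0.28 without LSK array 1, with 12 genes called, and -0.03 without LSK array 3, with 4 higher and 4 lower. It was 0.22 without the lymphoma arrays numbered 1 and 0.06 without those numbered 2, 0.22 with DN1 left out of the lymphoma mean, and 0.05 with DN2 left out, when 3 rose and 3 fell. The genes that rose were Cdc25b, Ccnb2, Ect2, Cdc25c and Melk, and the one that fell was Cenpa.

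Taken one by one against the same 3 LSK arrays, the fractions differed in how many mitosis genes were called. In DN2, 20 rose and 0 fell (51.3% of the 39, with 25.4% of all genes called, 11.4% higher and 14% lower), and the median difference was 0.51 against 0.04 over all genes. That number was 11 without DN2 array 2 and 13 without DN2 array 3. In DN3, 9 rose and 0 fell (24.5% of all genes called, 11.4% higher and 13.1% lower), with a median of 0.30, and 4 were called without LSK array 2 or without LSK array 3. The median was 0.18 without LSK array 3 and 0.19 without DN3 array 2, where 4 rose and 2 fell. The share called in DN3, 23.1% of the 39, was thus near that of all genes, though all of its calls were higher. The share over all genes includes dim ones. With only genes above the array median on 3 or more arrays kept, 22 of the 39 were called in DN2 and 11 in DN3. Of all genes so kept, 4915 of 11606 were called in DN2 and 4810 of 11642 in DN3.

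The other 3 fractions had few calls and some of them lower. In CLP 3 rose and 1 fell (17.7% of all genes called, 6.54% higher and 11.2% lower), with a median of 0.28. That median was 0.48 without CLP array 1, 0.42 without LSK array 1, 0.17 without LSK array 3, 0.13 without CLP array 2 and 0.18 without CLP array 3. CLP calls were sensitive to every array: 12 genes were called without CLP array 1, 2 without CLP array 2, and 1 without any other of the 6 arrays. In DN1 2 rose and 4 fell (19.7% of all genes called, 7.45% higher and 12.3% lower), with a median of -0.18. This balance depended on scaling and on the LSK arrays. It was 3 higher and 2 lower with each array centred on its median (median -0.10), 3 and 4 after quantile normalization (-0.09), 3 and 1 without LSK array 1 (-0.03), 2 and 1 without LSK array 2 (-0.15), and 2 and 8 without LSK array 3 (-0.35). In DN4 3 rose and 2 fell (26.6% of all genes called, 11.8% higher and 14.9% lower), with a median of -0.06 that was 0.01 after quantile normalization, 0.05 without LSK array 1 and 0.03 without DN4 array 1, and -0.19 without LSK array 3. There 3 were called without LSK array 2 or DN4 array 2, and 9 without LSK array 3. All of these comparisons share the LSK arrays.

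**Figure D3:**
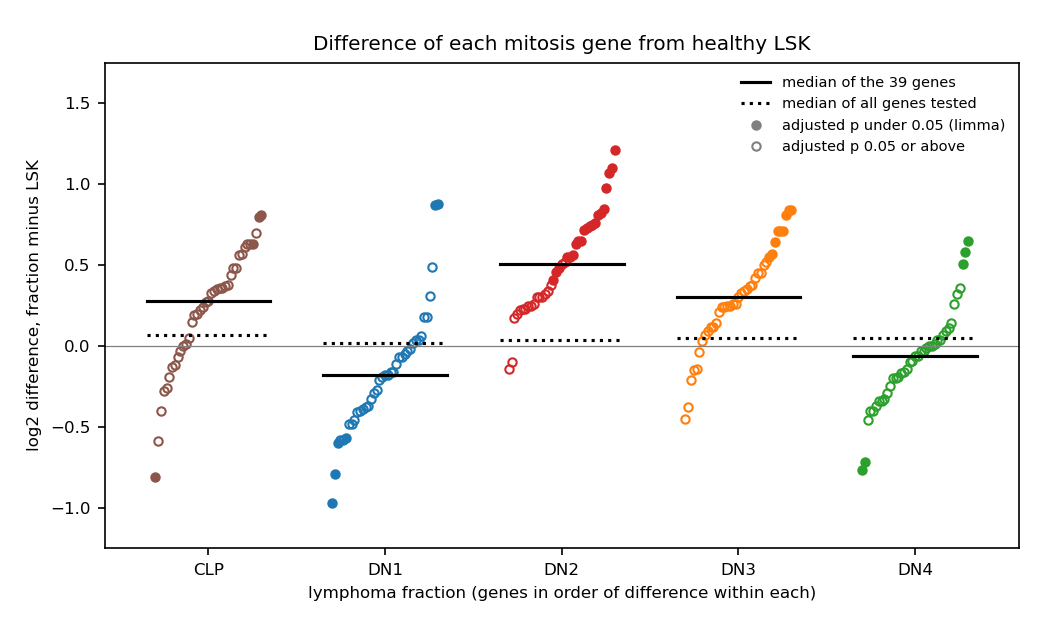
Log2 difference from LSK of each of the 39 mitosis genes (points, in order of size within each fraction) in the 5 lymphoma fractions; filled points passed an adjusted p under 0.05 by limma, solid lines are medians of the 39 genes and dotted lines medians of all genes tested. The DN2 points lie highest, with a median of 0.51 and 20 filled points, and the DN1 and DN4 medians lie at -0.18 and -0.06.

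LSK arrays also carried more RNA of myeloid and erythroid markers, which may bear on every comparison with LSK. The 12 granulocyte markers averaged 7.40, 7.78 and 6.52 on LSK arrays 1, 2 and 3 and 4.66 to 5.43 on the lymphoma arrays, and 7 of them were called lower. The 8 erythroid and megakaryocyte markers averaged 7.07 to 7.31 in LSK and 5.20 to 5.47 in the lymphoma, with 5 called lower. LSK array 3 was lowest both for the granulocyte markers and for the mitosis genes. The granulocyte markers were highest on LSK array 2 and the mitosis genes on LSK array 1. The erythroid and megakaryocyte markers were highest on LSK array 3, at 7.07, 7.26 and 7.31 on arrays 1, 2 and 3. The arrays do not tell which cells carry this marker RNA, and its part in the mitosis gene differences was not tested.

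Among the 5 fractions, 14 of the 39 genes differed by the F test of limma, where 7.88% of all genes did. Those 14 were Cdk1, Aurkb, Prc1, Mad2l1, Ttk, Nusap1, Kif15, Kif23, Spc25, Bub1, Top2a, Ect2, Plk4 and Mki67. The median span between the highest and the lowest fraction was 0.74 on the log2 scale, against 0.32 over all genes. Without CLP array 1 the F test called 26, and without the whole CLP fraction it called 24, the 14 among them. It called 9 without DN1 array 1 or without DN2 array 2. DN2 had the highest mean of the 5 fractions for 32 of the 39 genes (82.1%), as it did for 13.7% of all genes. DN1 had the lowest for 28 (71.8%, against 28.2% of all genes), DN4 for 7 and CLP for 4.

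The 6 regulators of mitotic entry, with their cyclins and transcription factor, held the genes that stood furthest above LSK. Cdc25b encodes a phosphatase that activates CDK1. It read 6.51, 6.70 and 6.23 in LSK, 7.04, 7.53 and 7.30 in CLP, 7.44, 7.56 and 7.06 in DN1, and 7.51, 7.76 and 7.81 in DN2. In DN3 it read 7.23, 7.46 and 7.28, and in DN4 7.22, 7.14 and 7.03, so each of the 15 lymphoma arrays was above each LSK array. The lymphoma mean rose 1.83-fold (log2 0.87, SE 0.13, limma adjusted p = 0.000839, 3 values against 3), and DN2 rose 2.32-fold (1.21, SE 0.15, adjusted p = 8.2e-05). Cdc25b was called in each of the 5 fractions, the least so in CLP (0.81, adjusted p = 0.0180), where the call was lost without LSK array 1, LSK array 3 or CLP array 2.

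Ccnb2, which encodes cyclin B2, a partner of CDK1, read 8.93, 8.60 and 8.62 in LSK. Its CLP arrays split into 8.61 on array 1 and 9.69 and 9.75 on the others. It read 9.67, 9.55 and 9.57 in DN1, 9.47, 9.77 and 9.85 in DN2, 9.14, 9.55 and 9.38 in DN3, and 8.99, 9.30 and 9.39 in DN4. Outside CLP every lymphoma array was thus above the LSK arrays, and DN1 was as high as DN2. The lymphoma rise was 0.73 (SE 0.14, adjusted p = 0.00366) and the DN1 rise 0.88 (SE 0.14, adjusted p = 0.00108). DN2 minus DN1 was 0.10, with a 95% interval of -0.39 to 0.59, the least difference of the 39 genes between these fractions. In DN4 Ccnb2 rose by 0.51 (adjusted p = 0.0243), a call lost without LSK array 2 or 3 or DN4 array 2 or 3.

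Cdc25c, the other CDC25 phosphatase of the list, was the dimmest of the 39. It read 6.24, 5.75 and 5.78 in LSK, 5.96, 7.45 and 5.81 in CLP, 6.42, 6.48 and 6.36 in DN1, and 6.74, 7.05 and 7.28 in DN2. DN3 gave 6.19, 7.08 and 6.65 and DN4 6.15, 6.13 and 6.45. DN1 and DN2 lay above LSK on every array, and CLP array 2 read more than 1 unit above the other CLP arrays. The DN2 rise of 1.10 (SE 0.17, adjusted p = 0.000564) held with each array left out in turn. The rise of the lymphoma mean of 0.62 (SE 0.17, adjusted p = 0.0221) was lost without LSK array 2, without the lymphoma arrays numbered 2 or numbered 3, and with DN2 left out of the mean.

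Cdk1 itself, the kinase that drives mitotic entry, had the largest span of the 39 among the fractions but no net difference from LSK. Its LSK arrays read 9.84, 9.45 and 9.22, and CLP read 9.62, 10.02 and 10.56. DN1 read 9.11, 8.83 and 8.21, all below LSK, and DN2 read 9.57, 9.82 and 10.07. DN3 read 9.64, 9.91 and 9.67, and DN4 read 9.01, 9.09 and 9.22. The difference of the lymphoma mean from LSK was -0.01 (95% interval -0.35 to 0.32). Between CLP and DN1 the span was 1.35, or 2.55-fold (SE 0.23, adjusted p = 0.00102). DN1 fell against LSK by 0.79 (SE 0.23, adjusted p = 0.0358), a call lost without LSK array 1 or 2 or DN1 array 2 or 3 and when each array was centred on its median. Foxm1, the transcription factor of many late cycle genes, rose against LSK in CLP (0.80), DN2 (0.85) and DN3 (0.71), and Ccna2, which encodes cyclin A2, in DN2 (0.56, adjusted p = 0.0185). Ccna2 in DN2 was not called without LSK array 2 or 3 or DN2 array 2 or 3, and Foxm1 in CLP was not called without 5 of the 6 arrays, CLP array 1 being the exception. In DN3 Foxm1 was not called without LSK array 2 or 3 or DN3 array 2 or 3, and in DN2 it was not called without DN2 array 2.

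The 10 mitotic kinases and their activators rose in 5 cases in DN2 against LSK and in 4 cases in DN3, and none fell in either. Aurkb is the kinase of the chromosomal passenger complex, which corrects faulty attachments of chromosomes. It read 9.79, 9.46 and 9.25 in LSK, 9.10, 9.21 and 9.07 in DN1, and 10.15, 10.37 and 10.24 in DN2. CLP read 9.55, 10.15 and 10.23, DN3 10.05, 10.31 and 9.85, and DN4 9.15, 9.76 and 9.70. The 3 DN1 arrays lay below every LSK array and the 3 DN2 arrays above every one. DN2 rose by 0.76 against LSK (SE 0.15, adjusted p = 0.00290) and stood 2.19-fold above DN1 (log2 1.13, SE 0.19, adjusted p = 0.00442), and both calls held with each array left out in turn. Birc5, which encodes survivin of the same complex, rose by 0.75 in DN2, and Incenp, its scaffold, averaged 8.13 in DN2 and 7.60 in LSK and was not called against LSK.

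Ttk encodes the MPS1 kinase, which starts the spindle checkpoint. It read 7.78, 7.75 and 7.49 in LSK, 7.49, 7.99 and 8.33 in CLP, and 6.92, 7.20 and 7.11 in DN1. DN2 read 7.68, 8.11 and 8.26, DN3 7.83, 8.19 and 8.12, and DN4 7.34, 7.62 and 7.79. Only in DN1 did all arrays lie below all LSK arrays, and Ttk fell there by 0.60 (SE 0.15, adjusted p = 0.0144), a call lost without LSK array 1 or 2 or DN1 array 1. Among the fractions it was 0.97 higher in DN3 than in DN1 (SE 0.20, adjusted p = 0.00506). Melk rose by 0.82 in DN2 and 0.81 in DN3, and these calls held with each array left out. The rise of its lymphoma mean (0.56, adjusted p = 0.0335) rested on groups that overlapped and was lost without LSK array 2 or 3 or the lymphoma arrays numbered 2 or 3. Plk1, a kinase that acts from mitotic entry to exit, rose by 0.81 in DN2 and 0.71 in DN3. The DN3 calls of Plk1 and Aurkb were lost without LSK array 2 or 3 or DN3 array 1 or 2. Plk4, which starts centriole duplication, was not called against LSK in any fraction and was highest in CLP (8.51, SD 0.04), where it stood 0.76 above DN1 and 0.72 above DN4. Nek2, a kinase of centrosome separation, rose by 0.41 in DN2 (adjusted p = 0.0442), a call lost without LSK array 3 or any 1 of the DN2 arrays. Aurka and its activator Tpx2 were not called in any comparison.

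Of the 4 genes of the spindle checkpoint and CDC20, 2 rose in DN2 against LSK, Bub1b by 0.73 and Bub1 by 0.55, and 1 fell in DN1, Mad2l1. Mad2l1 encodes MAD2, the checkpoint protein that holds CDC20 in check. It read 10.01, 9.72 and 9.51 in LSK, 9.49, 10.39 and 10.42 in CLP, and 9.35, 8.99 and 9.18 in DN1. DN2 read 9.96, 9.83 and 10.20, DN3 10.13, 10.12 and 10.23, and DN4 9.52, 9.72 and 10.04. Each DN1 array was below each LSK array and each DN3 array above them. The DN1 fall was 0.57 on the log2 scale (SE 0.17, adjusted p = 0.0326), and it was lost without LSK array 1 or 2 or DN1 array 2 or 3, with each array centred, and with all 18 arrays in 1 model. DN3 stood 1.99-fold above DN1 (log2 0.99, SE 0.21, adjusted p = 0.00592). Bub1, a checkpoint kinase, was called between CLP and DN1 (0.81, adjusted p = 0.00491), DN2 and DN1 (0.73) and DN3 and DN1 (0.63), and its DN2 rise against LSK was lost without LSK array 3, DN2 array 2 or DN2 array 3. Cdc20, the activator of the anaphase-promoting complex, was called in no comparison, and its CLP arrays read 8.11, 9.54 and 9.46.

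Of the 6 kinetochore and centromere genes, 1 rose in DN2 against LSK (Nuf2, 0.65, adjusted p = 0.00748) and 1 fell in DN4 (Cenpa). Their median difference from LSK was 0.27 in DN2, -0.38 in DN1 and -0.24 in DN4. Cenpa encodes the histone H3 variant that marks centromeres. It read 8.86, 8.59 and 8.57 in LSK, 7.32, 8.31 and 8.62 in CLP, 8.44, 8.23 and 7.90 in DN1, and 8.41, 8.52 and 8.68 in DN2. DN3 read 8.09, 8.56 and 8.02, and DN4 read 7.80, 7.90 and 8.16. All arrays of DN1, DN3 and DN4 lay below the lowest LSK array, and those of CLP and DN2 overlapped with LSK. Cenpa fell by 0.47 in the lymphoma mean (SE 0.12, adjusted p = 0.0168), a call lost without the lymphoma arrays numbered 1 and with all 18 arrays in 1 model. In DN4 it fell by 0.72 (SE 0.14, adjusted p = 0.00262), which held with each array left out. Ndc80, Nuf2 and Spc25 encode subunits of the NDC80 complex, the microtubule anchor of the kinetochore. Ndc80 had the widest spread of the 39 within a group, at 7.06, 8.71 and 9.34 in CLP (SD 1.18). Spc25 stood 0.84 above DN1 in CLP (adjusted p = 0.0185), and its F test call was lost without any 1 of 12 of the 15 arrays. Cenpe, a kinetochore motor, and Cenpf were called in no comparison.

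Of the 7 spindle motors and microtubule binders, 4 rose in DN2 against LSK: Kif18b (0.74), Kif11 (0.72), Kif4 (0.65) and Kif15 (0.48). Prc1 followed another order of fractions than most of the list. PRC1 bundles the microtubules of the central spindle, and its gene read 8.84, 8.51 and 8.16 in LSK, 7.52, 7.87 and 7.68 in CLP, 7.98, 8.05 and 8.32 in DN1, and 8.54, 9.0 and 8.76 in DN2. DN3 read 7.84, 8.68 and 7.87, and DN4 7.68, 7.78 and 7.74. The CLP and DN4 arrays all lay below LSK, and CLP, where many of the 39 genes were high on arrays 2 and 3, lay below DN2 on every array. Against LSK Prc1 fell by 0.81 in CLP (SE 0.20, adjusted p = 0.0227) and by 0.77 in DN4 (SE 0.16, adjusted p = 0.00445). The DN4 call held with each array left out, and the CLP call was lost without LSK array 1 or 2 or CLP array 3. CLP stood 2.11-fold below DN2 (log2 -1.08, SE 0.20, adjusted p = 0.00470), and DN4 2.05-fold below it (-1.04, SE 0.20, adjusted p = 0.00502).

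Kif15, a kinesin that can stand in for KIF11 in keeping spindle poles apart, was highest in CLP. It read 9.03, 8.81 and 8.95 there, against 8.53, 8.33 and 8.07 in LSK and 7.97, 8.01 and 8.14 in DN1. DN2 read 8.60, 8.92 and 8.85, DN3 8.26, 9.05 and 8.66, and DN4 8.16, 8.29 and 8.60. No CLP array overlapped with LSK, DN1 or DN4. CLP stood 0.89 above DN1 (SE 0.18, adjusted p = 0.00349) and 0.63 above LSK (SE 0.17, adjusted p = 0.0317), the last call being lost without LSK array 2 or 3 or CLP array 1 or 3. Kif15 in DN2 against LSK (adjusted p = 0.0317) was not called without LSK array 2 or 3 or DN2 array 2 or 3.

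Nusap1, a microtubule binder of the spindle, read 9.53, 9.09 and 8.87 in LSK and 8.93, 9.61 and 9.55 in CLP. It read 8.56, 8.77 and 8.94 in DN1 and 9.34, 9.77 and 10.03 in DN2, without overlap between them. DN3 gave 9.20, 9.83 and 9.25, and DN4 gave 8.61, 9.01 and 9.11. DN2 stood 0.95 above DN1 (SE 0.22, adjusted p = 0.0434), but 9 of the 15 arrays, left out singly, took that call away. Kif18b, a kinesin that shortens microtubules, read 9.01, 8.58 and 8.16 in LSK, 8.23, 9.11 and 8.44 in CLP, and 8.21, 9.02 and 7.96 in DN1. DN2 read 8.89, 9.74 and 9.34, DN3 8.45, 9.48 and 8.56, and DN4 8.42, 8.55 and 8.30. Its arrays spread widely in each group except DN4, the only pair of groups that did not overlap was DN2 and DN4, and the F test of limma did not call it (adjusted p = 0.254). Its DN2 rise against LSK (adjusted p = 0.0390), with overlapping arrays, was lost without LSK array 2 or 3 or DN2 array 2 or 3. Kif11, the main motor that separates spindle poles, averaged 9.66 (SD 0.23) in DN2 and 8.94 (SD 0.33) in LSK (adjusted p = 0.0103, lost without DN2 array 2). Kif2c, a kinesin that takes microtubules apart at their ends, was called in no comparison.

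**Figure D4:**
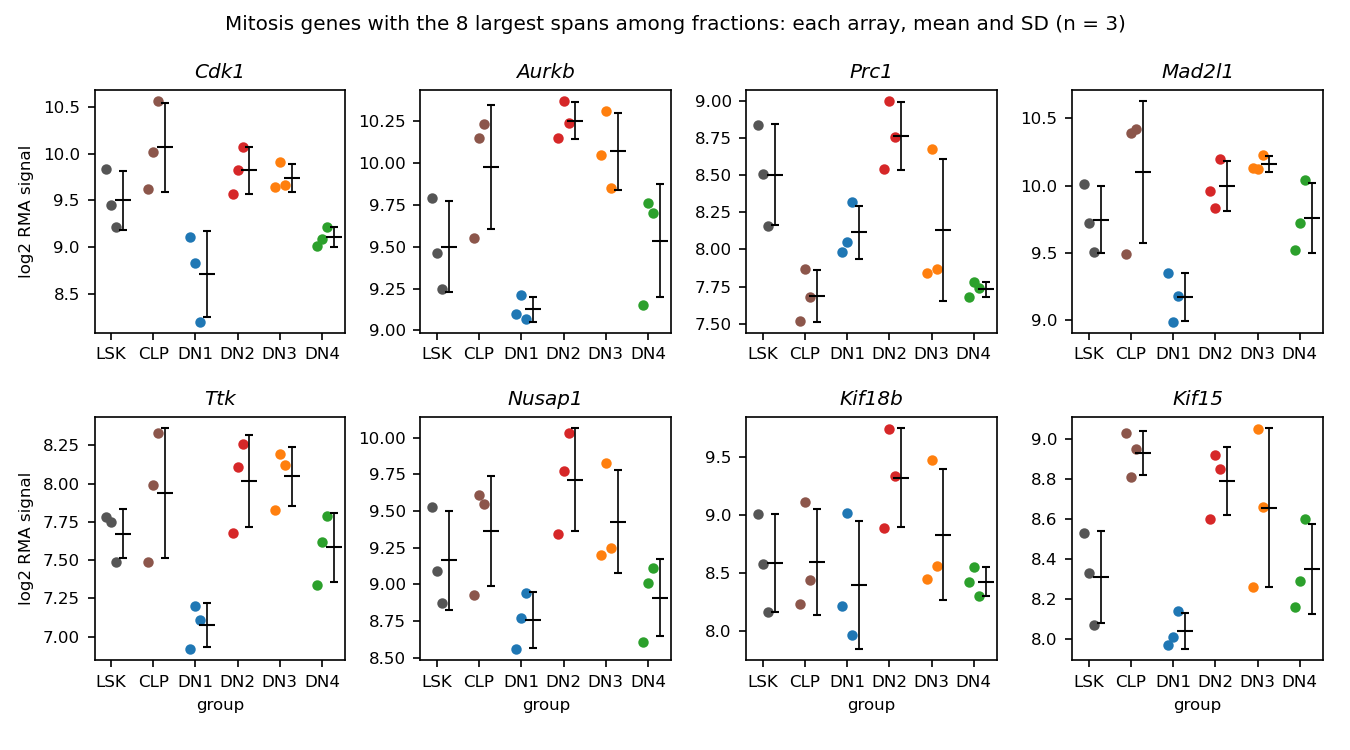
Log2 signal on each array (points) with the mean and SD of each group (n = 3) for the 8 mitosis genes with the largest span between fractions; the y axes differ in range and do not start at 0. Cdk1, Aurkb, Mad2l1 and Ttk are lowest in DN1 without overlap with DN2 or DN3, while Prc1 is low in CLP and DN4.

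Of the 4 cytokinesis genes, Ect2 rose and Kif23 fell against LSK, each in different fractions. Ect2 encodes the exchange factor that activates RhoA at the cleavage furrow. It read 9.03, 8.65 and 8.61 in LSK, 9.03, 9.38 and 8.92 in CLP, 8.95, 9.07 and 9.20 in DN1, and 9.70, 10.06 and 9.73 in DN2. DN3 read 9.48, 9.75 and 9.59, and DN4 9.12, 9.52 and 9.39, so DN2, DN3 and DN4 lay above all LSK arrays and CLP and DN1 overlapped with them. It rose by 0.63 in the lymphoma mean (SE 0.14, adjusted p = 0.00694), by 1.07 in DN2 (SE 0.15, adjusted p = 0.000283), by 0.84 in DN3 and by 0.58 in DN4, where the call was lost without LSK array 2 or DN4 array 2 or 3. Kif23, the motor of the centralspindlin complex that recruits ECT2, had its lowest values in DN1, at 8.22, 8.27 and 8.21, against 9.34, 9.36 and 8.92 in LSK and 9.07, 9.21 and 9.02 in DN2. CLP read 9.02, 9.01 and 9.18, DN3 8.90, 9.33 and 8.99, and DN4 8.64, 8.91 and 8.88, so DN1 overlapped with no other group. It fell in DN1 by 0.97 (SE 0.15, adjusted p = 0.000929) and was within 0.14 of LSK in CLP, DN2 and DN3. Each of the other 4 fractions stood above DN1 for Kif23, by 0.57 in DN4 (adjusted p = 0.0140) to 0.87 in DN2 (adjusted p = 0.00226). Anln, which encodes the ring protein anillin, and Kif20a, another central spindle motor, were called in no comparison. Top2a, the topoisomerase that untangles sister chromatids, and Mki67, the Ki-67 antigen of dividing cells, rose in DN2 against LSK, by 0.46 (adjusted p = 0.0341) and 0.63 (adjusted p = 0.0179). The Top2a call was lost without any 1 of 5 of the 6 arrays, LSK array 1 being the exception, and the Mki67 call without DN2 array 2 or 3.

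The step from DN1 to DN2 was the largest by median between neighbouring fractions of the DN series. All 39 differences were above 0, with a median of 0.69 against 0.02 over all genes, and 10 genes were called higher where 1.35% of all genes were called, 0.708% higher and 0.645% lower. All 3 DN2 arrays lay above all 3 DN1 arrays for 34 of the 39 genes (87.2%, against 8.27% of all genes). Besides Aurkb, Cdk1 (1.11, SE 0.23, adjusted p = 0.0181), Nusap1, Ttk (0.94), Kif23, Ect2 (0.76), Kif15 (0.75) and Bub1, the called genes were Incenp (0.70, adjusted p = 0.0397) and Mki67 (0.58, adjusted p = 0.0342). The number called moved with the arrays in the model: it was 19 without CLP array 1, 6 without DN3 array 1, 5 without DN1 array 2 or DN4 array 2, 3 without DN1 array 1 or 3, and 2 without DN2 array 2 or 3. It was 6 after each array was centred on its median. Calls for Aurkb and Kif23 held with each of the 15 arrays left out in turn. DN1 arrays also carried more plasma cell marker RNA, the 6 markers averaging 7.09 to 7.38 there and 6.01 to 6.41 in the other fractions. The gap lay mainly in Jchain, at 8.60 in DN1 and 4.09 to 4.45 in the others, while Sdc1 read 7.72 in DN1 and 7.70 to 7.92 in the others. Of the 6 markers 1 was called between DN2 and DN1, with a list median of -0.26. Their part in the result was not tested.

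From DN2 onward the genes were lower again, by less. DN3 minus DN2 had a median of -0.20 with 0 genes called by limma (6 at an unadjusted p under 0.05; 2.45% of all genes called, 1.3% higher and 1.15% lower), and 2 were called without DN3 array 2. That median was -0.32 without DN3 array 2, -0.13 without DN3 array 1 and -0.12 without DN2 array 2. DN4 minus DN3 was below 0 for all 39 genes, with a median of -0.40, and 0 were called (12 at an unadjusted p under 0.05), where 0.00451% of all genes were. Its median was -0.23 without DN3 array 2. DN4 minus DN2 was also below 0 for all 39, and Prc1, Top2a (-0.79, adjusted p = 0.00752) and Mki67 (-0.63, adjusted p = 0.0108) were called, where 2.65% of all genes were, 1.26% higher and 1.38% lower. DN2 arrays lay above all DN4 arrays for 35 of the 39 genes, as they did for 9.75% of all genes. Against DN1, DN3 was higher for 8 genes (6.7% of all genes called, 3.92% higher and 2.77% lower), among them Plk4 (0.64) and Cdk1 (1.03), and DN4 for Kif23 alone (5.61% of all genes called, 2.82% higher and 2.79% lower).

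CLP was higher than DN1 in several kinases and Cdk1 and lower than DN2 in Prc1 and Ect2. Against DN1, 9 genes were higher in CLP and 0 lower (7.78% of all genes called, 3.53% higher and 4.26% lower), led by Cdk1, Mad2l1 (0.93) and Kif15. Against DN2, 2 were called (2.87% of all genes, 1.09% higher and 1.78% lower), both lower in CLP: Prc1 and Ect2 (-0.72, SE 0.16, adjusted p = 0.0167). The median difference was -0.29, with -0.03 without CLP array 1 and -0.44 without CLP array 2. The number called was 4 without CLP array 2 or CLP array 3 and 1 without DN2 array 2, where Ect2 was lost. No gene was called between CLP and DN3 (3 at an unadjusted p under 0.05; 1.1% of all genes called by limma, 0.334% higher and 0.762% lower), and Plk4 alone was called between CLP and DN4, higher in CLP (1.07% of all genes called, 0.347% higher and 0.721% lower). The CLP arrays were the least alike of the groups, with correlations over all genes of 0.968 to 0.975 among them, against 0.982 to 0.993 in the other groups.

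**Figure D5:**
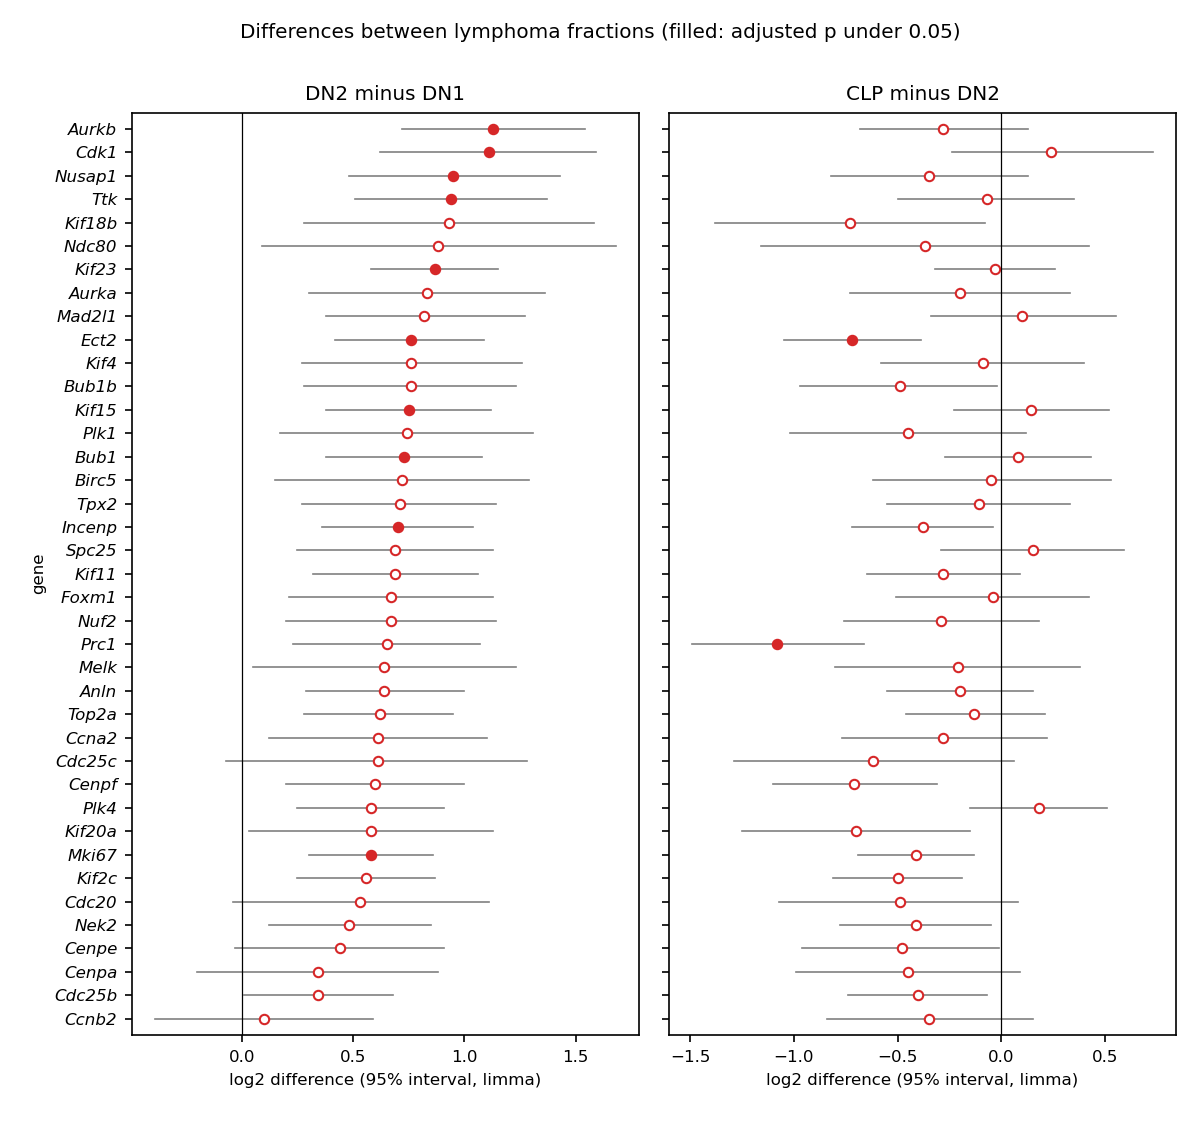
Difference of each of the 39 mitosis genes between DN2 and DN1 (left) and between CLP and DN2 (right) on the log2 scale, with 95% intervals from limma (n = 3 arrays per fraction, 15 arrays in the model); filled points passed an adjusted p under 0.05. Every DN2 minus DN1 point lies above 0, from 0.10 for Ccnb2 to 1.13 for Aurkb, whereas only Prc1 and Ect2 are filled on the right.

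Over the 15 lymphoma arrays the 39 genes varied together, given here as a description, since the arrays share fractions and a common normalization. Of 741 gene pairs 0 had a correlation below 0, and the median r was 0.67. The same values were not computed for pairs of other genes, so they have no background here. Cdc20 with Plk1 and Kif11 with Nusap1 had the highest, both at 0.96, and Ccnb2 with Kif23 (0.01) and Prc1 with Mad2l1 (0.06) the lowest. Ccnb2 and Prc1 had the lowest mean correlation with the other genes of the list, at 0.47 and 0.52, and Nusap1 the highest at 0.77. Outside the lists used here, Tcf19 (0.937), Rad51ap1 (0.935), Fam111a (0.929), H2bc12 (0.923) and Spata24 (0.922) were the genes most like Cdk1 by Pearson r over these arrays.

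A wider list of mitosis genes was also higher in DN2 than in DN1. Of 94 such genes 86 were measured, and against LSK 35 rose and 5 fell in DN2 while 4 rose and 18 fell in DN1. The share called was 46.5% in DN2, against 25.4% of all genes, and 25.6% in DN1, against 19.7%. From DN1 to DN2 17 rose and 0 fell (19.8%, against 1.35% of all genes). Among them were the condensin subunit Ncapg2 (1.05, limma adjusted p = 0.00143), the transcription factor gene Mybl2 (1.04) and the centriole gene Stil (0.97). Another was Fbxo5 (0.80), which encodes the EMI1 inhibitor of the anaphase-promoting complex. In the lymphoma mean, larger differences from LSK than in any of the 39 were seen for the kinase gene Nek6, at 9.03 in LSK and 5.54 to 5.79 in the fractions (log2 -3.36, SE 0.14, adjusted p = 1.03e-07), and for Psrc1 (1.59), Cenpt (-1.36) and Ncaph (1.06). In the fractions Nek6 read near the background gauge of 5.36 to 5.71, so the size of its fall is uncertain. The share of promoter windows with CHR letters was 59.1% in this list, and with CCAAT letters it was 64.8%.

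S phase genes, which act earlier in the cycle, were mostly higher than LSK in CLP, DN2, DN3 and DN4 and not in DN1. Of 46 such genes 43 were measured, and the number that rose was 31 for CLP, 2 for DN1, 33 for DN2, 35 for DN3 and 28 for DN4, with 0 lower in any. In the same order the shares called were 72.1%, 4.65%, 76.7%, 81.4% and 65.1%. Over all genes they were 17.7%, 19.7%, 25.4%, 24.5% and 26.6%. In DN1 19 of the 43 lay above LSK, with a median of -0.04. For the 39 mitosis genes the corresponding numbers that rose were 3, 2, 20, 9 and 3. In DN4 the median difference from LSK was 0.59 for the S phase genes and -0.06 for the mitosis genes, and in CLP it was 0.87 and 0.28. In the lymphoma mean, Prim2, a primase subunit, rose by 1.51 (SE 0.09, limma adjusted p = 2.09e-06), from 7.96 in LSK to 9.30 to 9.80 in the fractions. Tk1, thymidine kinase, rose by 1.28 and Gins1, of the replicative helicase, by 1.23. Prim2 (1.40, adjusted p = 3.71e-05) and Gins1 (0.55, adjusted p = 0.0389) were the 2 genes that also rose in DN1. From DN1 to DN2 30 rose and 0 fell (69.8%, against 1.35% of all genes). Among them were Exo1 (1.09), Cdc6 (0.97), a loader of the replicative helicase, and Pole (0.99), a replicative polymerase. CHR letters were in 14.3% of their promoter windows and CCAAT letters in 59.5%.

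Genes of cycle exit went in both directions. Of 26 such genes 25 were measured, and 5 rose and 8 fell in the lymphoma mean against LSK. That is 52%, where 29% of all genes were called, 13.1% higher and 15.8% lower. Cdkn1a, the p21 inhibitor of cyclin-dependent kinases, averaged 10.92 in LSK and 7.39 to 8.29 in the fractions (log2 -2.93, SE 0.20, adjusted p = 3.83e-06). Klf4, a transcription factor linked to quiescence, fell by 1.01, and Cdkn2c, the p18 inhibitor, rose by 0.98. Among the fractions Plk2, a polo kinase outside mitosis, spanned 2.77 (limma adjusted p = 1.66e-09), from 4.77 in DN2 to 7.55 in DN4. Its means in DN2 and in DN1 (5.26) lay below the background gauge of 5.36 to 5.71, so the size of the span is uncertain. Rbl1, a pocket protein, was 1.00 higher in DN2 than in DN1 (SE 0.16, adjusted p = 0.00377).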

How the data were processed

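Each deposited value is the log2 signal of a probe set, which the authors computed by RMA with the oligo package, per the submitters' processing notes; versions and array design are not given in the sources used here. Per the labels' protocols, an RNeasy Micro kit gave the RNA, and a WT Pico kit amplified it. RMA places all arrays on 1 distribution, so a shift of all genes between groups cannot be seen. Of 41345 probe sets, 23521 carry 1 gene symbol and 1814 several, which were left out with the 16010 that carry none. The brightest probe set by mean over the 18 arrays stood for each of 22180 genes.

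Differences were tested with limma 3.58.1 in R 4.3.3 (two-sided tests by lmFit and eBayes, adjusted by Benjamini-Hochberg across all genes). For all fractions together, the 5 fraction arrays of a replicate number were averaged, giving 3 values against 3 LSK arrays. Each fraction was compared with LSK in a fit of those 6 arrays, and fractions were compared in 1 model of the 15 lymphoma arrays. SE is the limma standard error and SD the spread over 3 arrays. The number of arrays limits precision. The code was tested on simulated data of 22180 genes, few of which were changed. Of differences of 1 log2 unit it recovered 76.1% between DN2 and DN1 and 68.7% between DN2 and LSK. It recovered 73.1% in the lymphoma mean and 74.6% in the F test. Of differences of 0.5 it recovered 22.4%, 1.49%, 11.9% and 7.46%, in the same order. Many more genes were called in the comparisons with LSK than were changed here, so these shares need not hold there.

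The genes, lists and alternatives were chosen with earlier results of these data known. Values on every array are given for the 8 genes with the largest spans among fractions, for up to 4 called genes with the largest rise and fall against LSK, and for genes called against the direction of most; from other lists a few genes of low p are given, and not every gene of low p is reported here. Further values, as for Kif23 and Cdc20, were chosen after they were seen. The alternatives kept only genes that exceeded the array median on 3 or more arrays, normalized by quantiles, averaged the probe sets of a gene, made the prior trended and robust, put in a block for the replicate number, or fitted all 18 arrays as 1 model. Others took a fraction out of the lymphoma mean, ran the F test without CLP, left out each array in turn and, as chosen after seeing the data, centred each array on its median. They were run for the 6 comparisons with LSK, the F test, DN2 against DN1, DN3 against DN2, DN4 against DN3 and CLP against DN2, and not for the other 6 pairs of fractions.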

Additional observations from a re-analysis of the deposited data

Results flagged for a closer look

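In 8 of the mitosis genes, 2 fractions lay on opposite sides of LSK by at least 0.1 on the log2 scale, at least 1 of these fractions was called against LSK, and limma called the fractions different from each other. That is 20.5% of the 39, and 523 of all 22180 genes (2.36%) met the same conditions. In 6 of them DN1 was the fraction below LSK. For Cdk1 the differences from DN1 were 1.35 in CLP, 1.11 in DN2 and 1.03 in DN3. For Ttk they were 0.86 in CLP, 0.94 in DN2 and 0.97 in DN3. Mad2l1 differed from DN1 by 0.93 in CLP and 0.99 in DN3, and Kif15 by 0.89 in CLP and 0.75 in DN2. Aurkb differed from DN1 by 1.13 in DN2 and 0.95 in DN3, and Bub1 by 0.73 in DN2. In the other 2, DN2 was the fraction above LSK: Prc1 differed from it by -1.08 in CLP and -1.04 in DN4, and Top2a by -0.79 in DN4. Groups of 3 arrays were not searched for outlying samples.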

How the results depend on the processing

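Of the 76 gene calls in the 11 comparisons recomputed, 32 held under every alternative and 0 reversed direction. These include Cdc25b, Ccnb2 and Ect2 in the lymphoma mean, and Aurkb and Kif23 between DN2 and DN1; of the 4 calls of CLP against LSK, 0 did. Apart from left-out arrays, 5 counts of called mitosis genes moved by over 1.5 times. With the replicate number as a block, 2 genes rather than 4 were called in CLP against LSK, 18 rather than 10 between DN2 and DN1, and 4 rather than 2 between CLP and DN2. The F test called 24 rather than 14 without the CLP fraction, and DN2 against DN1 gave 6 with each array centred on its median. Whether the numbers pair the arrays is not given: over 30 same-number pairs of lymphoma arrays the deviations from group means correlated at -0.193 to 0.346 (median 0.121). The correlations of each array were also averaged over the arrays of each number in the other fractions. For 11 of 15 arrays this average was highest for their own number. For DN1 with DN2 the 3 same-number values were 0.04, 0.334 and 0.072. For DN2 with DN3 they were 0.139, 0.259 and 0.161 and for DN3 with DN4 0.11, 0.108 and 0.273, and the block left both of these counts at 0. The cause of these moves was not tested. With each array left out in turn the count ran from 4 to 12 for the lymphoma mean, 1 to 12 for CLP, 3 to 10 for DN1, 11 to 24 for DN2, 4 to 11 for DN3 and 3 to 9 for DN4 against LSK. It ran from 9 to 26 for the F test, 2 to 19 for DN2 against DN1, 0 to 2 for DN3 against DN2, 0 to 0 for DN4 against DN3 and 1 to 4 for CLP against DN2. Over all genes, CLP against LSK gave 3928 calls, 6139 with all 18 arrays in 1 model and 2559 without LSK array 1. DN2 against DN1 gave 300, and 144 or 168 without DN2 array 2 or 3. CLP against DN2 gave 636, 1270 without CLP array 1, and 377, 299 or 351 without DN2 array 1, 2 or 3. DN4 against DN3 gave 1, and 2 without DN3 array 1. With only genes above the array median on 3 or more arrays kept, the F test called 1770 of 11997 genes and 16 of the 39. Between DN2 and DN1 it was 348 of 11997 and 12 of the 39. In the lymphoma mean it was 5336 of 11650 and 8 of the 39. In the simulated data, with 3 arrays a group and few genes changed, differences of 0.5 log2 units were mostly missed. The share missed in the measured comparisons is not known.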
